A study of Homo sapiens with 6 samples.

Results

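The enzymes that make, recycle and balance nucleotides were followed in MM.1S cells, an established human multiple myeloma line, with and without knockdown of PRKCN, a kinase of the protein kinase D family. The set held 33 genes, chosen by symbol for their known place in purine, pyrimidine, deoxynucleotide or folate metabolism, out of 21850 genes in the deposited table. All 33 symbols were listed and all 33 passed the filter on low counts. RNA-seq libraries came from cells collected on day 3 after lentiviral transduction. The control group (shNT, 3 libraries) received a scramble short hairpin RNA, and the knockdown group (shPRKCN, 3 libraries) received a hairpin against PRKCN. The control cells are labelled wild type. The vector carried a green fluorescent protein marker, and the control therefore shared the transduction and the marker with the knockdown. The study's methods describe sorting of marker-positive cells for functional assays and do not state it for the sequenced cells. Neither the labels nor the methods state which of the study's hairpins the sequenced cells carried or whether the 3 libraries of a group came from separate cultures. The p-values below thus measure the spread between these libraries, which may be technical, and they speak for 1 cell line.

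Purine nucleotides are built step by step on phosphoribosyl pyrophosphate (PRPP) until inosine monophosphate (IMP) is reached, from which the adenine and guanine branches part. Pyrimidines are first closed into a ring, then joined to PRPP to give uridine nucleotides, from which cytidine nucleotides follow. Ribonucleotide reductase turns ribonucleotides into deoxynucleotides for DNA, thymidylate synthase adds the methyl group of thymine with a folate cofactor, and salvage enzymes recover free bases and nucleosides. The small subunit of ribonucleotide reductase and cytosolic thymidine kinase are known to be made mainly in cells that are copying DNA. Dividing myeloma cells draw on all of these routes.

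Library totals ran from 35625564 to 37730003 counts. Levels of a gene are given as CPM, counts scaled to a common library total after TMM normalization, and levels of different genes are compared only as FPKM, which is also divided by gene length. PRKCN is listed under its current symbol PRKD3 (chromosome 2, 37250502 to 37324833, RefSeq on GRCh38.p14). Its level was 1272, 1298 and 1216 CPM in the shNT libraries and 535, 490.9 and 526.5 CPM in the shPRKCN libraries. This left 41.0% of the control level (log2 fold change −1.29, SE 0.034, adjusted p = 8.2e-43). Each adjusted p here comes from the quasi-likelihood test of edgeR, corrected by Benjamini-Hochberg over all genes tested, unless another test is named. All 9 plasma cell markers checked exceeded 10 CPM on average, and their summed level was 9207 to 9327 CPM in shNT and 7920 to 8044 CPM in shPRKCN libraries. JCHAIN, which made up most of that sum, was at 5358 and 5412 CPM. By the limits given below, 4 of the 9 were called lower, where 10.6% of all genes tested were. They were IRF4 (27.7% of control), XBP1 (41.1%), TNFRSF17 (45.7%) and SLAMF7 (51.2%). At adjusted p under 0.05 alone, PRDM1 (68.7%) and MZB1 (85.5%) were lower and SDC1 (113.5%) was higher, while CD38 and JCHAIN did not pass. Taken as separate lists, the myeloid, epithelial and fibroblast markers each summed to under 3 CPM in every library. The 4 T cell markers summed to 10.7 to 12.0 CPM in shNT and 27.5 to 31.3 CPM in shPRKCN libraries. CD3E carried most of that sum and was called higher (log2 fold change 1.405), while CD3D and CD3G had at most 3 counts in any library. The part of these marker shifts in the differences below was not tested. In bulk RNA, fewer cells expressing a gene and less RNA per cell cannot be told apart.

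A gene was called lower or higher where its log2 fold change went beyond 0.58 and its adjusted p was under 0.05. By these limits 6 of the 33 enzymes (18.2%) fell in shPRKCN cells, against 10.6% of all 13971 genes tested. RRM2, HPRT1, TK1, TYMS, RRM1 and PRPS2 were the 6. No member rose past both limits, where 6.15% of all genes did. DESeq2 also called 6 lower and 0 higher. Without the fold limit, 16 members (48.5%) were lower, against 27.8% of all genes, and 9 (27.3%) were higher, close to the 26.5% of all genes. The unadjusted p was under 0.05 for 17 lower and 9 higher members. The shPRKCN libraries lay entirely below the shNT libraries for 17 members (51.5%; 29.8% of all genes) and entirely above them for 9 (27.3%; 29% of all genes). The median log2 fold change was −0.10 over the members and 0.0012 over all genes tested. It ranged from −0.11 to −0.061 when single libraries were left out, and the value nearest 0 came from leaving out shPRKCN 2.

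**Figure D1:**
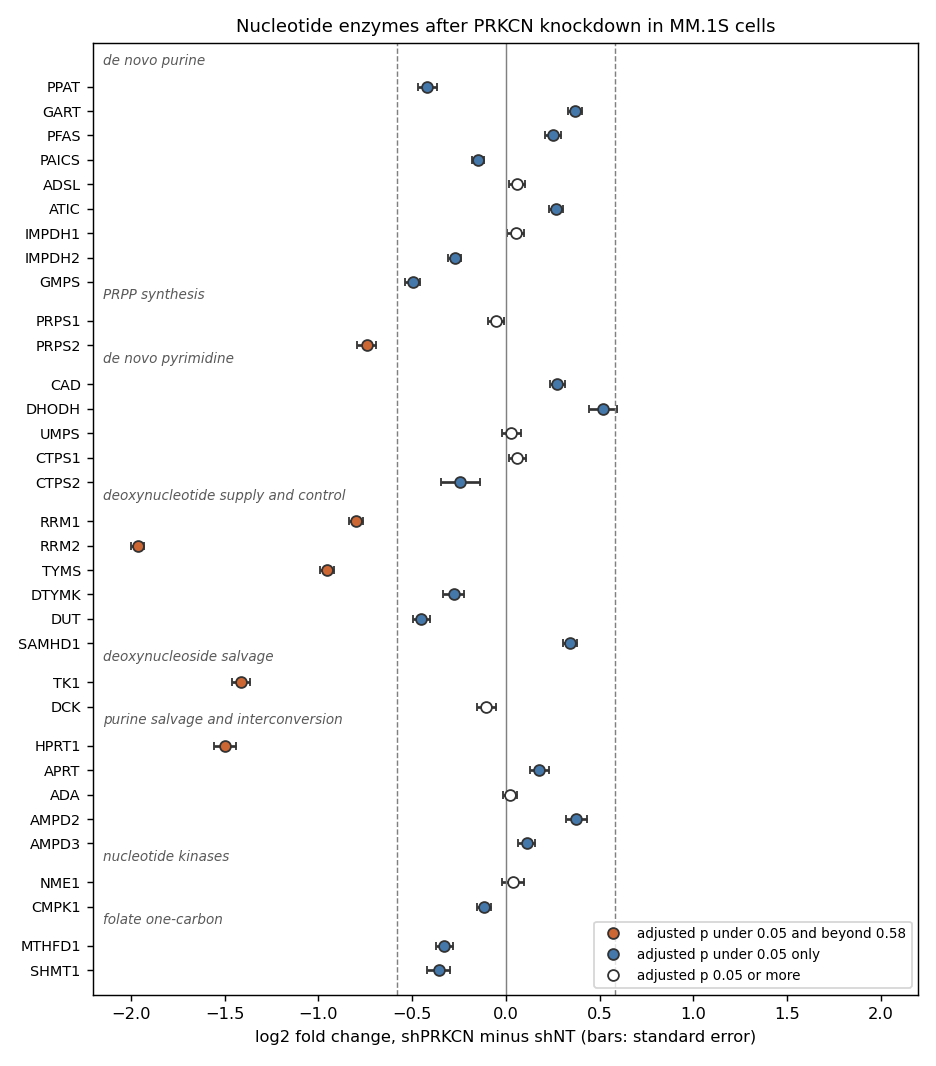
Log2 fold change (x axis, shPRKCN minus shNT) of each of the 33 enzymes (y axis), grouped by branch of the pathway, with bars for the standard error and dashed lines at the fold limit of 0.58 on either side of 0. Only 6 points lie past a dashed line, all on the lower side, and 3 of them belong to deoxynucleotide supply.

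All 33 enzymes together took 0.383% ± 0.00081 (SD, n = 3) of the counts in shNT and 0.319% ± 0.0018 in shPRKCN libraries. Without RRM2, the other members took 0.334% to 0.336% in shNT and 0.304% to 0.308% in shPRKCN libraries, so RRM2 alone carried much of that loss. The 6 genes of deoxynucleotide supply, RRM2 included, went from 0.116% ± 0.00081 to 0.0630% ± 0.0015 of the counts. The 9 de novo purine genes took 0.143% ± 0.00062 and 0.140% ± 0.0017. The summed share of the 5 de novo pyrimidine genes went the other way, from 0.0247% ± 0.00017 to 0.0280% ± 0.00012 of the counts. Among these 5, CAD (97.0 to 117.2 CPM) and DHODH (15.6 to 22.3 CPM) rose, UMPS and CTPS1 did not pass the test, and CTPS2 lay below control.

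The upstream sequences of the lowered genes are shown because these genes moved in the same direction. RefSeq promoter windows (GRCh38.p14, 250 bases before to 50 after a start site) were found for 31 of the 33 members, with ADSL and IMPDH2 unmatched. Several start sites of 1 gene gave 48 windows in all. The capitals mark a match to CCAAT, known as the binding letters of NF-Y, to TTTCCCGC or TTCCCGCC, 2 forms of the E2F site, or to GGGCGG, the core of the Sp1 site. Both strands were searched, and a match on the other strand appears as its reverse complement. All are printed 5′ to 3′ along the gene's own strand. The RRM2 and TK1 stretches lie before a start inside the gene span, not before the outermost start. Before the outermost start of RRM2, at 10122568, a CCAAT match was found 249 bases away. No CCAAT match was found before that of TK1, at 78187204. GGGCGG is shown for HPRT1 alone, at the match farthest from the start of its 4, since none of the other motifs was found there, and a further match at the end of that stretch is in lower case.
RRM2, chr2:10122604-10122632 (+), 123 bases before the start at 10122739: ggcaaggcgcagCCAATgggaagggtcgg
RRM2, chr2:10122634-10122662 (+), 93 bases before the same start: ggcatggcacagCCAATgggaagggccgg
RRM2, chr2:10122661-10122689 (+), 66 bases before the same start: ggggcaccaaagCCAATgggaagggccgg
TK1, chr17:78187113-78187141 (−), 77 bases before the start at 78187052: ggccgggcgctgATTGGccccatggcggc
TK1, chr17:78187082-78187110 (−), 46 bases before the same start: ggccggctcgtgATTGGccagcacgccgt
RRM1, chr11:4094645-4094673 (+), 28 bases before the start at 4094685: gcatgtccatatCCAATggggcccatggg
RRM1, chr11:4094451-4094480 (+), 223 bases before the same start: caagaaaaacgTTCCCGCCggttaggtttt
TYMS, chr18:657603-657632 (+), 39 bases before the start at 657653: gcgggacggccGCGGGAAAaggcgcgcgga
PRPS2, chrX:12791389-12791411 (+), 12 bases before the start at 12791412: agccgccgcgcTTTCCCGCtccc
HPRT1, chrX:134460085-134460114 (+), 68 bases before the start at 134460165: gcgtaggcgcgcGGGCGGggccgggggcgg

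RRM2 held 3 CCAAT matches in the sense direction within 1 window, each followed by the same 8 bases, while 0.823% of all 35116 windows hold at least 3 in that direction. Counted on either strand, at least 3 occur in 3.26% of windows, and among the members in GART, which lay above control, as well as in RRM2. Counting repeats was not planned, and RRM2 has more than 1 window, so these shares are description only. CCAAT alone is common. It was found in 13 of the 31 members (41.9%) and in 43.4% of the 11035 tested genes with a window. These included lowered members (RRM1, RRM2, TK1) and raised members (GART, CAD, DHODH, SAMHD1). By window, 17 of 48 held it, against 34.6% of all windows. TTTCCCGC occurred in 3 members (9.68%; 3.32% of tested genes; 1.63% of windows) and TTCCCGCC in 4 (12.9%; 6.14%; 3.16%). Another E2F form, TTTGGCGC, occurred in GART, DUT and DCK (9.68%; 1.42%; 0.652%). Any of these 3 forms, which can overlap each other, was present in 8 members (25.8%) and in 9.08% of tested genes. Those 8 were GART, PAICS, PRPS1, PRPS2, RRM1, TYMS, DUT and DCK, so that lowered and raised members both held one. CACGTG, the E-box bound by MYC, was found in 8 members (25.8%; 12.4% of tested genes; 7.26% of windows), namely PPAT, PAICS, ATIC, DHODH, DCK, AMPD2, NME1 and MTHFD1. None of the 6 called members held it in these windows. GGGCGG was in 25 members (80.6%; 74.3%; 45% of windows). Such matches describe letters and do not show binding.

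Deoxynucleotide supply held 3 of the 6 called enzymes. Of all 33 members the lowering was largest for RRM2, the small radical-bearing subunit of ribonucleotide reductase (chromosome 2, 10122568 to 10211010). Its level was 486.6, 483.5 and 487.8 CPM in shNT libraries and 125.7, 122.6 and 125.5 CPM in shPRKCN libraries. The libraries of each group lay close together and the groups were far apart. The knockdown cells kept 25.6% of the control level, a 3.90-fold decrease (log2 fold change −1.96, SE 0.035, adjusted p = 5.55e-53). RRM1, the large subunit that binds substrates and allosteric effectors (chromosome 11, 4094685 to 4138932), gave 171.7, 170.7 and 167.8 CPM in shNT and 95.25, 96.58 and 101.3 CPM in shPRKCN libraries. It too fell without overlap between the groups, though less, to 57.4% of control (log2 fold change −0.80, SE 0.039, adjusted p = 2.26e-28).

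TYMS, thymidylate synthase, which makes thymidylate from deoxyuridylate (chromosome 18, 657653 to 673578), was also called lower. It measured 219.4, 220.0 and 224.1 CPM in shNT and 112.3, 114.1 and 116.0 CPM in shPRKCN libraries. Its level was thus 51.6% of control, with no overlap (log2 fold change −0.95, SE 0.037, adjusted p = 1.25e-33). TYMS overlaps ENOSF1 and the antisense gene TYMSOS, and whether counting used the strand is not given in the sources used here. ENOSF1 had 23.3 CPM in shNT and 21.9 CPM in shPRKCN cells (log2 fold change −0.09, adjusted p = 0.29), and TYMSOS was at 3.09 and 2.36 CPM (log2 fold change −0.39, adjusted p = 0.0807).

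The other enzymes of this branch differed by less than the fold limit. DUT, the dUTPase that keeps uracil out of DNA and supplies the substrate of TYMS, was at 104.4, 109.2 and 107.7 CPM in shNT and 73.96, 77.46 and 83.59 CPM in shPRKCN libraries (log2 fold change −0.45, SE 0.044, adjusted p = 2.69e-14). Every shPRKCN library was below every shNT library. DTYMK, which phosphorylates thymidylate, had a log2 fold change of −0.28 (SE 0.057, adjusted p = 2.49e-05), from 38.7 ± 1.86 to 31.9 ± 1.18 CPM (SD, n = 3). SAMHD1, which breaks down deoxynucleotide triphosphates, was the exception in direction. It measured 140.0, 147.1 and 139.0 CPM in shNT and 177.1, 181.7 and 180.5 CPM in shPRKCN libraries, all above control (log2 fold change 0.34, SE 0.037, adjusted p = 3.15e-12).

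Over the 6 genes, 3 were called lower and 0 higher (10.6% and 6.15% of all genes), 5 were lower and 1 higher at adjusted p alone (27.8% and 26.5% of all genes), and the median log2 fold change was −0.63. A marker list of DNA replication was chosen with earlier results of these data known. Its genes of replication licensing and the fork (MCM2 to MCM7, MCM10, CDC6, CDT1, CDC45, GINS1 to GINS4 and PCNA) moved with this branch. Of these 15, 10 were called lower and 0 higher, and all 15 were lower at adjusted p alone, where the shares of all genes are those just given. Their median log2 fold change was −0.75, and their summed level was 1574 to 1589 CPM in shNT and 966 to 1003 CPM in shPRKCN libraries. The share of cells copying DNA was not measured in these libraries, and its part in the lower deoxynucleotide enzymes was not tested. The study reports cell cycle arrest after constitutive PRKCN knockdown, from BrdU and DAPI staining of MM.1S and U266 cells. It also reports the E2F target and G2M checkpoint gene sets as inhibited in its RNA-seq of the knockdown.

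**Figure D2:**
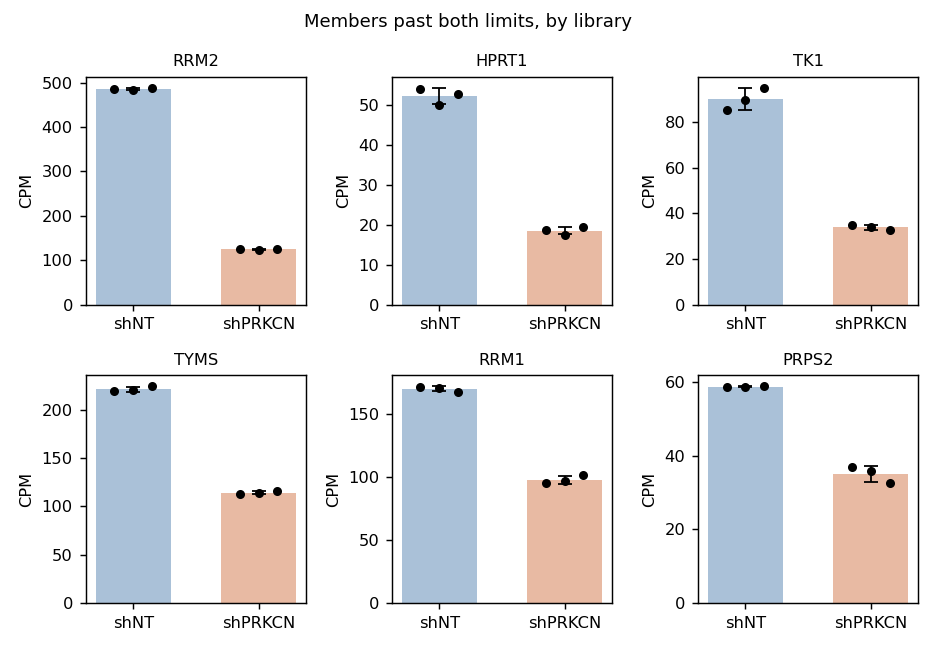
Level of the 6 called enzymes in CPM (y axis, starting at 0), with a point for each library, bars at the mean and whiskers for the SD (n = 3 per group). In every panel the 3 shPRKCN points lie below the 3 shNT points, and the gap is widest for RRM2, at 486.0 against 124.6 CPM on average.

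The deoxynucleoside salvage kinases differed from each other. TK1, the cytosolic thymidine kinase (chromosome 17, 78174079 to 78187204), had 85.43, 90.02 and 95.11 CPM in shNT and 34.92, 34.18 and 32.54 CPM in shPRKCN libraries. The groups stood well apart, and the knockdown cells kept 37.6% of the control level (log2 fold change −1.41, SE 0.050, adjusted p = 5.77e-36). The start of TK1 lies 158 bases from that of the divergent neighbour AFMID, which went the other way (log2 fold change 0.31, adjusted p = 5.77e-06). DCK, deoxycytidine kinase, which activates deoxycytidine and its drug analogs, had 56.26, 54.47 and 55.87 CPM in shNT and 52.43, 47.71 and 54.82 CPM in shPRKCN libraries. These ranges overlap, and the log2 fold change of −0.10 (95% interval −0.20 to −0.0051) did not pass (adjusted p = 0.0755). Without shPRKCN 3 it was −0.14 (adjusted p = 0.0342), and over all alternatives the adjusted p of DCK ran from 0.0342 to 0.449.

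Among the purine salvage and interconversion enzymes HPRT1 was the one called. HPRT1 returns hypoxanthine and guanine to the nucleotide pool and is also widely used as a reference transcript (chromosome X, 134460165 to 134500668). It had 53.97, 50.04 and 52.56 CPM in shNT and 18.74, 17.43 and 19.33 CPM in shPRKCN libraries. The groups were far apart relative to their spread, and the level left was 35.5% of control (log2 fold change −1.496, SE 0.059, adjusted p = 3.08e-33). With single libraries left out its log2 fold change stayed between −1.52 and −1.45.

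APRT, which salvages adenine with the same co-substrate, had 48.11, 47.57 and 52.08 CPM in shNT and 53.61, 59.25 and 54.29 CPM in shPRKCN libraries. The shPRKCN values were slightly above control (log2 fold change 0.18, SE 0.051, adjusted p = 0.00235). AMPD2 and AMPD3 deaminate AMP to IMP. AMPD2 had 32.2 ± 1.04 CPM in shNT and 41.8 ± 3.15 CPM in shPRKCN cells (log2 fold change 0.38, SE 0.057, adjusted p = 5.82e-08). AMPD3 gave 75.0 ± 3.83 and 81.0 ± 3.24 CPM (log2 fold change 0.11, SE 0.045, adjusted p = 0.0329). Over the alternatives this p lay between 0.0132 and 0.235, and it was above 0.05 without shNT 3 (0.235), shPRKCN 2 (0.142) or shPRKCN 1 (0.0648), with DESeq2 (0.0535), and with limma on log2(FPKM + 1) (0.0867) or log2(FPKM + 0.1) (0.0767). ADA, adenosine deaminase, stayed at a high level in both groups, 170.2 ± 4.57 and 172.7 ± 6.01 CPM (log2 fold change 0.021, 95% interval −0.053 to 0.094, adjusted p = 0.669). In this branch HPRT1 therefore fell while APRT and AMPD2 were higher at adjusted p alone, AMPD3 was so in only part of the fits, and the median log2 fold change was 0.11.

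The PRPP synthetases make the ribose donor used by de novo synthesis and by HPRT1 and APRT. PRPS2 (chromosome X, 12791412 to 12824222) was called lower, with 58.64, 58.66 and 58.84 CPM in shNT and 36.93, 35.72 and 32.62 CPM in shPRKCN libraries. The control libraries were nearly equal and all knockdown libraries lay below them (log2 fold change −0.74, SE 0.052, adjusted p = 3.65e-20). Its isoenzyme PRPS1 had 86.76, 84.63 and 83.84 CPM in shNT and 80.28, 82.59 and 82.72 CPM in shPRKCN libraries. Although these groups did not overlap, the difference was small and did not pass (log2 fold change −0.055, 95% interval −0.14 to 0.029, adjusted p = 0.281).

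In de novo purine synthesis 4 of 9 enzymes were lower and 3 higher at adjusted p alone (27.8% and 26.5% of all genes), 2 did not pass and none was called. The median of the 9 log2 fold changes was 0.052. PPAT, which commits PRPP to the pathway, had 61.42, 62.93 and 60.87 CPM in shNT and 45.01, 46.45 and 47.08 CPM in shPRKCN libraries, with all knockdown values below control (log2 fold change −0.42, SE 0.049, adjusted p = 2.23e-11). GART, a multifunctional enzyme of the early steps, lay in the opposite direction. It had 191.1, 189.6 and 191.6 CPM in shNT and 241.9, 255.5 and 241.1 CPM in shPRKCN libraries (log2 fold change 0.37, SE 0.036, adjusted p = 3.26e-14).

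PFAS, which carries out the next amidation, was also above control (69.6 ± 0.428 against 82.9 ± 2.23 CPM, log2 fold change 0.25). PAICS, which carries out the carboxylation that follows, was below it (356.9 ± 7.04 against 322.1 ± 2.11 CPM, log2 fold change −0.15, adjusted p = 0.000131). ATIC, whose activities complete IMP, was above control (125.9 ± 2.50 against 151.4 ± 5.21 CPM, log2 fold change 0.27, adjusted p = 1.56e-08). ADSL, a lyase used on the way to IMP and again on the way to AMP, had overlapping groups (94.7 ± 3.63 against 98.6 ± 2.97 CPM, log2 fold change 0.059, adjusted p = 0.236).

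PPAT and PAICS are transcribed away from each other, with starts 137 bases apart. In RefSeq the spans of both genes also overlap, from 56410507 to 56435615 on chromosome 4, because some PAICS annotation reaches into PPAT. As the strand of counting is not given, reads from the overlap could be assigned to either gene. GART shares a divergent start region with SON, 146 bases away, whose log2 fold change was 0.087 (adjusted p = 0.0203).

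From IMP to the guanine nucleotides the measured steps were lower or did not pass. IMPDH2, the main IMP dehydrogenase of dividing cells, had 341.8, 341.1 and 342.3 CPM in shNT and 274.4, 292.3 and 282.0 CPM in shPRKCN libraries (log2 fold change −0.27, SE 0.034, adjusted p = 2.41e-10). Its isoenzyme IMPDH1 had overlapping groups (60.0 ± 1.40 against 62.2 ± 1.65 CPM, log2 fold change 0.052, 95% interval −0.041 to 0.14, adjusted p = 0.365). GMPS, which aminates xanthylate to GMP, had 138.1, 135.6 and 139.6 CPM in shNT and 96.64, 101.6 and 94.47 CPM in shPRKCN libraries. That difference, without overlap, was the largest of the de novo purine enzymes (log2 fold change −0.50, SE 0.040, adjusted p = 1.22e-17), and it stayed under the fold limit.

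Of the 5 de novo pyrimidine enzymes, 2 were higher and 1 lower at adjusted p alone (26.5% and 27.8% of all genes), and none passed the fold limit. CAD, which joins the opening activities of the pathway in 1 protein, had 95.37, 99.29 and 96.25 CPM in shNT and 118.7, 119.2 and 113.7 CPM in shPRKCN libraries (log2 fold change 0.27, SE 0.041, adjusted p = 2.76e-08). DHODH, the mitochondrial dihydroorotate dehydrogenase, had 15.26, 16.05 and 15.54 CPM in shNT and 21.05, 21.73 and 24.22 CPM in shPRKCN libraries. It had the largest upward difference of the 33 enzymes, with every knockdown library above control (log2 fold change 0.52, SE 0.075, adjusted p = 1.76e-08).

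UMPS, which completes uridine monophosphate, had overlapping groups (49.3 ± 1.14 against 50.3 ± 2.22 CPM, log2 fold change 0.029, adjusted p = 0.654). CTPS1, the CTP synthase needed for lymphocyte proliferation, also overlapped (76.6 ± 1.59 against 79.9 ± 3.33 CPM, log2 fold change 0.061, adjusted p = 0.249). CTPS2, its weakly expressed isoenzyme, was at 10.5 ± 0.304 and 8.86 ± 0.643 CPM (log2 fold change −0.24, SE 0.10, adjusted p = 0.0415). This result is not stable, since the adjusted p of CTPS2 lay between 0.0314 and 0.162 under the alternatives, was 0.0799 with DESeq2, and exceeded 0.05 without shNT 1 (0.0841), shNT 2 (0.12), shPRKCN 2 (0.162) or shPRKCN 3 (0.0737).

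Of the nucleotide kinases, CMPK1, which phosphorylates UMP and CMP, was slightly lower in shPRKCN cells (190.8 ± 3.25 against 176.0 ± 0.409 CPM, log2 fold change −0.12, SE 0.036, adjusted p = 0.00485). NME1, a nucleoside diphosphate kinase, was at 32.8 ± 1.95 and 33.7 ± 1.07 CPM (log2 fold change 0.037, adjusted p = 0.622). NME1 lies within the readthrough gene NME1-NME2, which is not listed, and its near-identical neighbour NME2 was listed at only 0.45 CPM in shNT and 0.38 CPM in shPRKCN cells, so the split of reads between them is uncertain. Both folate enzymes were lower at adjusted p alone (27.8% of all genes). MTHFD1, the cytosolic enzyme that makes the formyl donor of purine synthesis, had 88.49, 84.74 and 82.45 CPM in shNT and 64.43, 68.15 and 71.11 CPM in shPRKCN libraries (log2 fold change −0.33, SE 0.045, adjusted p = 4.67e-09). SHMT1, the cytosolic serine hydroxymethyltransferase that supplies the folate cofactor of TYMS, went from 29.4 ± 1.64 to 22.9 ± 0.178 CPM (log2 fold change −0.36, SE 0.064, adjusted p = 1.76e-06). SMCR8, which overlaps SHMT1, had a log2 fold change of 0.011.

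In all, 8 members did not pass at adjusted p alone (ADSL, IMPDH1, PRPS1, UMPS, CTPS1, DCK, ADA and NME1). The 95% intervals of their log2 fold changes all lay within 0.204 of 0, so that at this depth differences beyond that size were outside the intervals. Counts of single members ran from 304 to 18264 per library. Processed pseudogenes or near-identical relatives exist for several members, HPRT1, RRM2 and PRPS1 among them, and how reads with several matches were counted is not given in the sources used here.

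**Figure D3:**
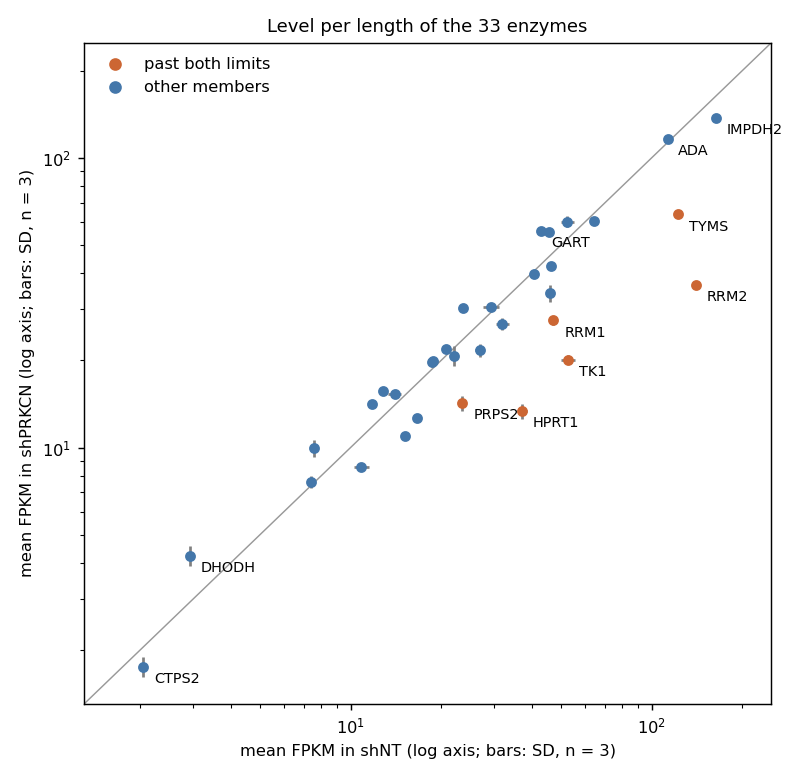
Mean FPKM of each enzyme in shNT (x axis) and shPRKCN (y axis), both on log axes, with bars for the SD (n = 3) and the diagonal marking equal levels. The 6 called enzymes lie below the diagonal, with RRM2 at 140.5 against 36.5 FPKM, while IMPDH2 stays at the top in both groups.

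Per length, 31 of the 33 enzymes were above the median FPKM of all tested genes in shNT cells. The order in shNT began with IMPDH2 (163.5 ± 0.2004 FPKM), RRM2 (140.5 ± 0.441), TYMS (122.1 ± 1.42), ADA (113.0 ± 3.00) and CMPK1 (64.5 ± 1.18), which differed from each other by more than their SDs. TK1 (52.9 ± 2.86 FPKM) and APRT (52.5 ± 2.60), next in order, did not. In shPRKCN cells the order began with IMPDH2 (137.2 ± 3.17 FPKM), ADA (116.1 ± 2.82), TYMS (63.8 ± 1.296), CMPK1 (60.3 ± 0.504) and APRT (60.2 ± 2.68), of which the last pair did not differ beyond its spread. RRM2 moved from rank 2 to rank 10 of the 33, TK1 from rank 6 to rank 19, and HPRT1 from rank 14 to rank 26. GART went from rank 12 to rank 6. CTPS2 and DHODH were the least abundant in both groups, at 2.05 ± 0.061 and 2.92 ± 0.080 FPKM in shNT cells.

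Subunits and isoenzymes were then compared within each library as a ratio of FPKM. RRM1 to RRM2 was 0.338, 0.339 and 0.330 in shNT and 0.727, 0.755 and 0.774 in shPRKCN libraries, so that the transcript of the small subunit exceeded that of the large subunit 2.95-fold to 3.03-fold in control and 1.29-fold to 1.38-fold in knockdown cells. This was the widest shift of the 5 pairs (difference of 1.16 in log2 ratio). PRPS1 to PRPS2 went from 1.71 to 1.77 in shNT libraries to 2.60 to 3.04 in shPRKCN libraries (difference 0.69).

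The 3 remaining pairs shifted less. IMPDH1 to IMPDH2 ran from 0.124 to 0.129 in shNT and from 0.154 to 0.169 in shPRKCN libraries (difference 0.32). CTPS1 to CTPS2 ran from 8.76 to 9.64 and from 10.1 to 12.7 (difference 0.31). AMPD2 to AMPD3 ran from 0.504 to 0.58 and from 0.616 to 0.672 (difference 0.26). In all 5 pairs the ratio was higher in every shPRKCN library, and the 2-sided exact permutation test gave p = 0.1 for each, the smallest p that 3 libraries against 3 allow (0.1 after Benjamini-Hochberg adjustment over the 5 pairs). The choice of which gene is placed first sets the direction of a ratio. How many other gene pairs separate in this way was not computed. Of single genes tested, 29.8% lay entirely below control and 29% entirely above it.

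**Figure D4:**
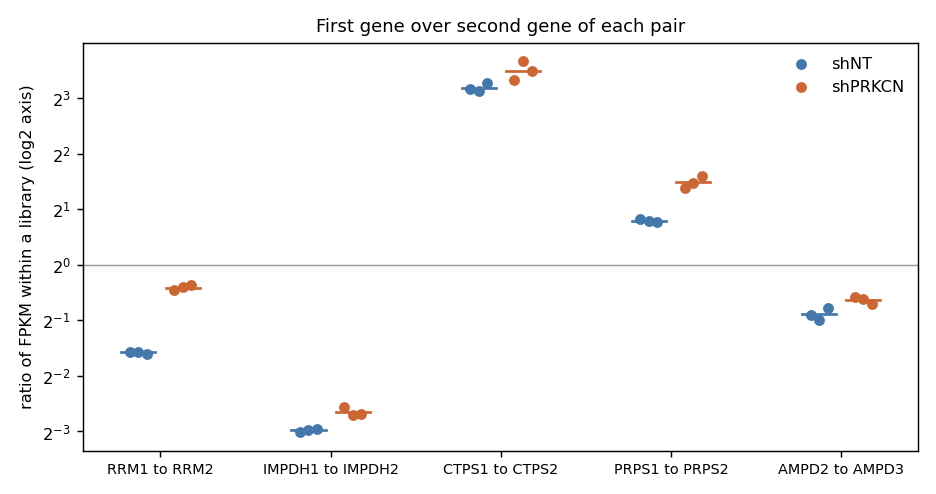
Ratio of FPKM of the first to the second gene of each pair in every library (y axis, log2 axis, with a line at equal levels), with short lines at the mean of the log2 ratios. All shPRKCN points lie above all shNT points within each pair, and the shift is widest for RRM1 to RRM2, from 0.330 to 0.339 up to 0.727 to 0.774.

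Other genes of nucleotide and folate metabolism, outside the 33, were read in lists by function. Of 78 such genes, 75 were listed and 67 tested (AK5, CDA and NT5C1B were not listed). Together 9 were called lower and 5 higher (13971 genes tested gave 10.6% and 6.15%), 25 were lower and 17 higher at adjusted p alone (27.8% and 26.5% of all genes), and their median log2 fold change was 0.026.

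The other purine enzymes held 5 called lower and 1 called higher of 18 tested (10.6% and 6.15% of all genes), with a median of −0.11. AMPD1, the AMP deaminase best known from skeletal muscle, had 60.5 ± 2.17 CPM in shNT and 13.2 ± 0.263 CPM in shPRKCN cells (log2 fold change −2.201, SE 0.060, adjusted p = 2.58e-42). Its relative AMPD2 was higher at adjusted p alone, and AMPD3 was so in only part of the fits. ADSS2, which opens the branch from IMP to AMP, fell from 72.8 ± 4.06 to 38.3 ± 1.54 CPM (log2 fold change −0.93, SE 0.051, adjusted p = 1.04e-25). The adenylate kinases AK4 (log2 fold change −1.03), AK3 (−0.64) and AK1 (−0.64) were called lower as well, AK1 at 1.96 to 3.06 CPM on average. GDA, guanine deaminase, was called higher on few reads, with 27, 23 and 8 counts in shNT and 60, 46 and 73 counts in shPRKCN libraries.

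The other folate enzymes and carriers held 4 called lower and 2 called higher of 18 tested (10.6% and 6.15% of all genes). At adjusted p alone 11 were lower and 3 higher (27.8% and 26.5% of all genes), and the median was −0.33. ALDH1L2, a mitochondrial formyltetrahydrofolate dehydrogenase, had 24.0 ± 3.54 and 4.23 ± 0.616 CPM (log2 fold change −2.50, SE 0.10). GGH, which trims folate polyglutamates, had a log2 fold change of −0.96, and AMT, of the glycine cleavage system, lay at −0.60, close to the limit. MTHFD2L, a mitochondrial folate dehydrogenase, was called higher (log2 fold change 0.62).

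The remaining lists held few calls (10.6% of all genes were called lower and 6.15% higher). None of the 11 other deoxynucleotide enzymes, RRM2B among them, was called in either direction. At adjusted p alone 3 were lower and 3 higher (27.8% and 26.5% of all genes), with a median of −0.022. RRM2B, the small subunit made outside S phase, had 13.1 ± 1.58 CPM in shNT and 13.7 ± 0.909 CPM in shPRKCN cells (log2 fold change 0.067, SE 0.092, adjusted p = 0.562). Of the 10 other pyrimidine enzymes tested, CMPK2, a mitochondrial kinase known as interferon-inducible, was the only one called, with 15, 7 and 20 counts in shNT and 42, 45 and 63 counts in shPRKCN libraries (median of the list 0.14). Of the 10 nucleotidases and nucleoside carriers tested, NT5E, the ecto-nucleotidase CD73, rose from 12.0 ± 0.484 to 22.4 ± 1.18 CPM (log2 fold change 0.90, SE 0.079, adjusted p = 4.92e-16). This list had 0 lower and 6 higher members at adjusted p alone (27.8% and 26.5% of all genes) and a median of 0.18.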

How the data were processed

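MM.1S cells transduced with a PRKCN or scramble hairpin (3 libraries each, groups from the labels) were profiled by RNA-seq. The authors deposited raw read counts per gene and FPKM values, and the deposited FPKM follow from the counts, the library total and 1 length per gene (largest relative gap 7.9e-07). The submitters' processing notes name FastQC, HISAT2, StringTie and GRCh38.p14. Strandedness and the handling of reads with several matches are not given in the sources used here. All genes were fitted together with edgeR 4.0.16 under R 4.3.3 (TMM, filterByExpr, quasi-likelihood), with Benjamini-Hochberg adjustment over 13971 genes. The limits follow the study (log2 fold change beyond 0.58, adjusted p under 0.05). At these limits edgeR gave 1475 lower and 859 higher genes, and DESeq2 gave 1445 and 813. The study reports larger counts in both directions from its own DESeq2 run, and the reason was not examined. The SE is the log2 fold change divided by the square root of F. Alternatives used DESeq2 1.42.0, limma 3.58.1 on log2(FPKM + 1) or log2(FPKM + 0.1), other scalings, filters and limits, the replicate number as a block, and each library left out. The default edgeR fit and DESeq2 were tested on simulated data, and the other alternatives were not. All 33 members and PRKD3 are named, and of the wider lists members past both limits, some of which are not reported here (RRM2B, in no such call, was chosen after its values were seen). The members and lists were chosen with earlier results of these data known. Pair ratios were compared with SciPy 1.17.1 (Python 3.11.15). Sequences and coordinates are RefSeq, GRCh38.p14.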

Additional observations from a re-analysis of the deposited data

How the results depend on the processing

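The 6 lower and 0 higher members were called under every scaling, filter and test tried, the exception being the fit with no fold limit, which gave 16 lower and 9 higher. Over all genes, the counts were 3877 lower and 3700 higher with no fold limit, 821 and 339 with glmTreat against 0.58, 648 and 315 with limma on log2(FPKM + 1), and 635 and 310 with limma restricted to an FPKM of at least 1 in 3 libraries. Leaving out single libraries moved the median log2 fold change of the members between −0.114 and −0.061. The value of UMPS ran from −0.0026 (without shPRKCN 1) to 0.067 and that of ADA from −0.0061 (without shPRKCN 2) to 0.049, and neither passed the test in any fit. With the replicate number as a block (replicate block), 6 members were lower and 0 higher, the median was −0.106, and 1463 genes were lower and 854 higher. No pairing of samples by number was detected: deviations of same-numbered libraries correlated at −0.042, −0.013 and 0.0038, and the block changed no call of a member. Of 528 values of single genes under the alternatives, 526 kept their direction and call. The limits that depth sets were not tested; GDA, CMPK2 and AK1 rest on the fewest reads among the genes named as called.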
